A study of Mus musculus with 18 samples.

Results

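The Frizzled receptors were followed in 18 RNA-seq libraries of neonatal mouse brain, and the members were all genes named *Fzd1* to *Fzd10*, taken by name. All 10 were present among the 23138 named genes of the hippocampal data, the 23398 of the neurospheres and the 54429 of both the cortical data and the *Rnf2* hippocampal data. Of repeated entries of a name, the one with the highest mean was read.

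The study asked how removal of the CxxC zinc finger of KDM2B, the domain through which this Polycomb subunit binds CpG-rich DNA, changes transcription in the hippocampus. The *Kdm2b* cKO libraries carried the genotype Kdm2b Emx1-delta-CxxC, and their controls carried Kdm2b fl/+ or Kdm2b fl/fl, which the labels do not tell apart. There were 3 control and 3 cKO libraries of hippocampus, 2 and 2 of hippocampal neurospheres, labelled NPC, and 2 and 2 of cortex. A further 2 control libraries (Rnf2 fl/+ or Rnf2 fl/fl) and 2 cKO libraries (Rnf2 Emx1-cKO) came from hippocampi in which *Rnf2*, the gene of the Polycomb ubiquitin ligase Ring1B, was the floxed target. All tissue was taken at postnatal day 0, and the neurospheres were grown from hippocampi of that age with FGF2 and EGF through 3 generations of culture. *Emx1*-Cre acts in the dorsal telencephalic lineage, and vessels, meninges, blood and microglia of the dissected tissue do not come from it. The strain of these mice is not given in the sources used here, and neither is whether libraries of a group came from separate animals. The p values then measure the spread between these libraries, which may be technical.

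Frizzled proteins are membrane-spanning receptors that bind secreted Wnt ligands through an extracellular cysteine-rich domain. With the coreceptors LRP5 or LRP6 they act through Dishevelled to stabilize β-catenin, which switches on target genes with TCF and LEF factors. Other Frizzled signals act without β-catenin and orient cells and axons in the plane of a tissue. In the embryonic brain, Wnts secreted from the cortical hem, which borders the hippocampal field, are needed for the hippocampus to form and for its progenitors to expand. By sequence the family is usually split into *Fzd1*, *Fzd2* and *Fzd7*, then *Fzd3* and *Fzd6*, then *Fzd5* and *Fzd8*, and last *Fzd4*, *Fzd9* and *Fzd10*.

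The unit is FPKM, in which fragments are scaled to transcript length and to the mapped fragments of the library, so members can be ranked within a library. The study's methods state an overall sequencing depth for RNA-seq, but the reads counted in each hippocampal or neurosphere library could not be read from the values. In cortex and *Rnf2* hippocampi the values gave back whole reads, with 1.85e+07 to 2.19e+07 and 1.47e+07 to 1.63e+07 reads per library. The neurosphere library of control replicate 1 stood apart, with a summed FPKM of 855276, of which 29.3% lay in entries without a gene name, against sums of 452580 to 522964 in the other neurosphere libraries. The floxed genes gave no strong check of the labels. The gene-level value of *Kdm2b*, which spans far more than the deleted exon and so checks nothing, was 29.4 ± 2.15 FPKM (SD, n = 3) in control and 27.2 ± 0.992 in cKO hippocampi. *Rnf2* stood at 31.5 ± 1.02 (SD, n = 2) in control and 28.1 ± 0.494 in *Rnf2* cKO hippocampi, a log2 fold change of -0.16 (limma adjusted p = 0.762). The tissue labels were also read against markers. Hippocampal markers (*Zbtb20*, *Prox1* and *Wfs1*) summed to 44.2 to 92.9 FPKM in the hippocampal libraries of both targets and to 5.45 to 8.49 in cortex. Neurospheres held 4193 to 7398 FPKM of 9 neural progenitor markers and 169 to 242 of 8 neuronal markers, against 1447 to 2305 of the neuronal markers in tissue. They also held 2360 to 2479 FPKM of 5 markers of the oligodendrocyte lineage, above the 12.1 to 74.8 of the tissues.

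KDM2B is known to bind DNA where CG dinucleotides are dense and unmethylated, so the starts of the members were inspected. RefSeq windows of 250 bases before to 50 after the gene start (GRCm38.p6) were given for 6 of the 10 members, *Fzd1*, *Fzd4*, *Fzd5*, *Fzd7*, *Fzd9* and *Fzd10*. The window of *Fzd9* held 53 CG dinucleotides, more than 99.5% of all 32851 windows, and that of *Fzd10* held 45, more than 98.1%. Those of *Fzd5*, *Fzd4*, *Fzd7* and *Fzd1* held 38, 32, 24 and 16. All windows had a median of 7 and quartiles of 3 and 20. Only 67 bases of the *Fzd9* window, with 9 CG, lie before the start that GENCODE annotates. The whole window of *Fzd10* lies inside its GENCODE transcript. The counts of these windows are therefore mostly of transcribed sequence by that annotation, and their ranks do not describe sequence before the gene start alone. The core motif of TCF and LEF factors, CTTTGA on either strand, was matched once in the window of *Fzd1* and not in the other 5, and it was present in 16.0% of all windows. Stretches of 3 members show the range of CG density, each limited to the bases that lie before the start in RefSeq and in GENCODE, with every CG in capitals. That of *Fzd9* is chr5:135251231-135251297 on the minus strand with 9 CG in 67 bases. That of *Fzd5*, one of the scarce members of the tissues, is chr1:64737752-64738000 on the minus strand with 31 CG in 249 bases. That of *Fzd1*, one of the most abundant, is chr5:4758217-4758466 on the minus strand with 12 CG in 250 bases. No stretch of *Fzd10* is shown, because its RefSeq window lies inside the transcript that GENCODE annotates.
Fzd9: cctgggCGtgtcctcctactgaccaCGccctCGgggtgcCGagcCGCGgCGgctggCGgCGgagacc
Fzd5: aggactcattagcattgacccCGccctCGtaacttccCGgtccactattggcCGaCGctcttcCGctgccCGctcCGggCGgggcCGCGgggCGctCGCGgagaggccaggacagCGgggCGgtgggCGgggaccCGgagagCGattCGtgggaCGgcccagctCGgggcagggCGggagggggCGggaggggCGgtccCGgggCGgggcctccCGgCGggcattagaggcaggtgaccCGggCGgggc
Fzd1: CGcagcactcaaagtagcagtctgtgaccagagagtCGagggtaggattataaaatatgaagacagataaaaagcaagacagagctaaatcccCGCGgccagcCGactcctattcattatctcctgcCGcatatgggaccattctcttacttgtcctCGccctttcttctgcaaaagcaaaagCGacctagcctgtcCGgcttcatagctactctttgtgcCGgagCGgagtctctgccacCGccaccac

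In control hippocampi, the Frizzled transcripts were dominated by 3 receptors. *Fzd1* led with 22.4 ± 1.07 FPKM (SD, n = 3), followed by *Fzd3* with 13.7 ± 0.609 and *Fzd7* with 10.3 ± 1.42. These 3 did not overlap with one another, and together they held 68.9% to 71.3% of a control library's summed Frizzled FPKM. A middle tier held *Fzd9* (4.84 ± 1.08), *Fzd8* (4.13 ± 0.226), *Fzd6* (4.06 ± 0.231) and *Fzd2* (3.32 ± 0.327), in which *Fzd9* and *Fzd8*, and *Fzd8* and *Fzd6*, overlapped between libraries. *Fzd10* (1.73 ± 0.445) and *Fzd4* (1.57 ± 0.299) overlapped below them, and *Fzd5*, known for its part in eye and gut development, was at 0.0805 to 0.156 FPKM.

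The 4 data sets were normalized separately, so their control levels are set side by side with no test between them. Control hippocampi of the *Rnf2* line had the same 4 leading receptors as those of the *Kdm2b* line, with *Fzd3* (19.5) and *Fzd1* (19.3) overlapping, then *Fzd7* (10.7) and *Fzd9* (10.3) overlapping. In control cortices *Fzd3* (19.8) and *Fzd1* (17.0) again led, but the third place went to *Fzd2* with 13.2 and 15.6 FPKM and the fourth to *Fzd8* with 9.24 and 9.78. *Fzd7*, among the first 3 in hippocampi, was at 3.50 in control cortices, where it overlapped with *Fzd9* at 3.57. *Fzd10* was the lowest member of control cortices, with 0.217 and 0.279 FPKM, which rest on 15 and 20 reads. Control neurospheres were led by *Fzd9* with 24.4 and 26.9 FPKM, ahead of *Fzd1* (22.9), *Fzd3* (15.1) and *Fzd10* (7.88), none of which overlapped with its neighbour. *Fzd7*, *Fzd5*, *Fzd2* and *Fzd8* followed between 2.90 and 2.10 with overlapping libraries, and *Fzd6*, which is known for its role in planar polarity, was the lowest at 0.344.

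**Figure D1:**
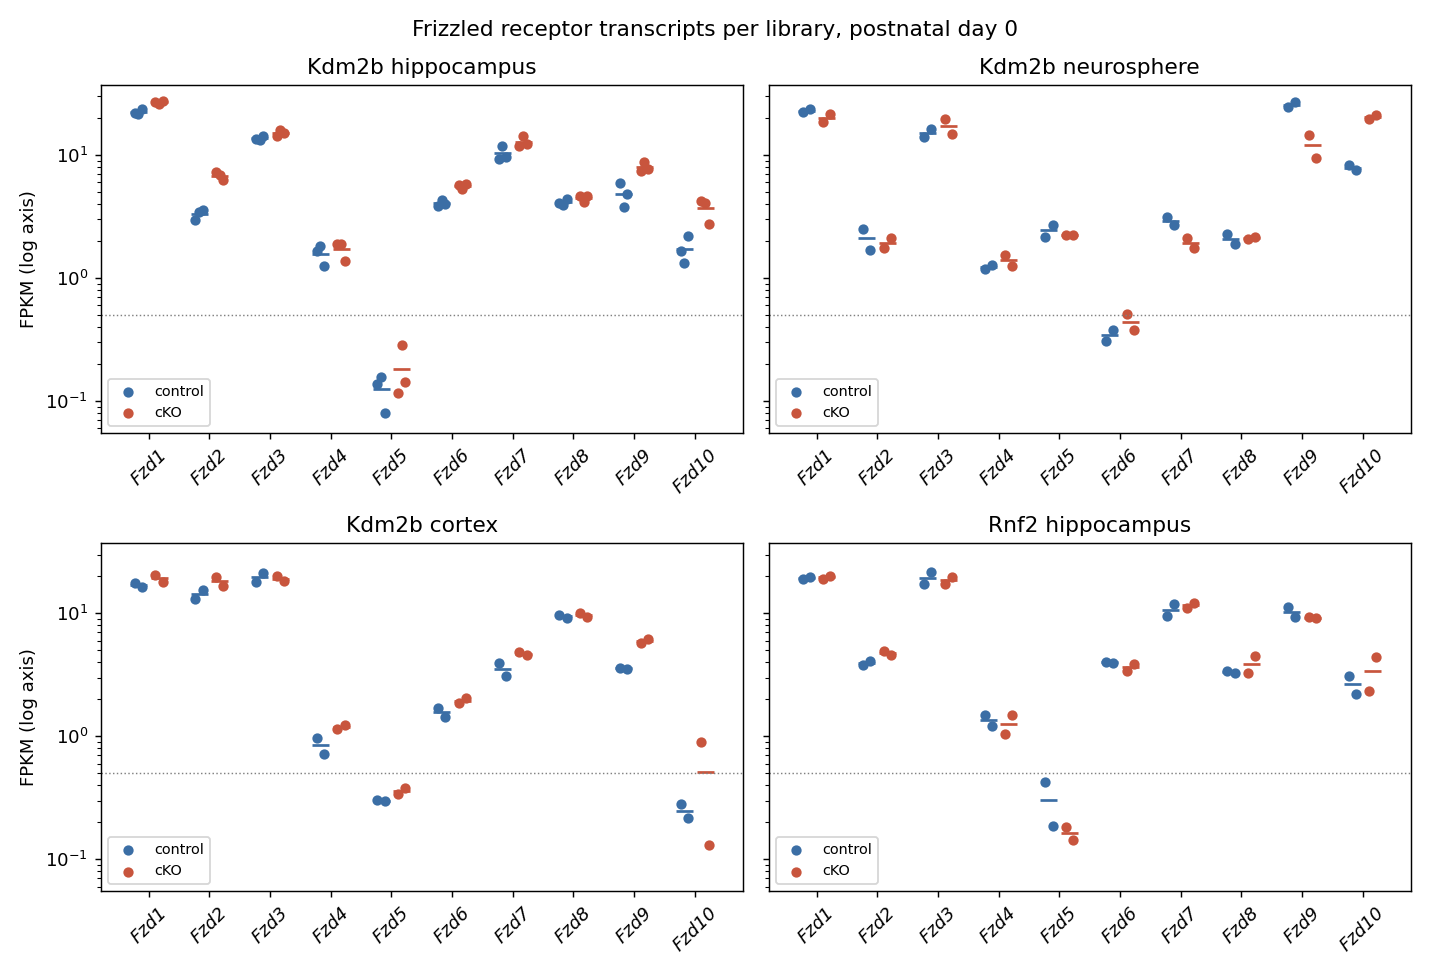
FPKM (log axis) of each Frizzled receptor in every library, with control libraries in blue, cKO libraries in red, a short line at each group mean and a dotted line at the 0.5 FPKM filter. *Fzd1* and *Fzd3* sat near the top of every panel, *Fzd2* stood at 13.2 FPKM or more in cortex, and *Fzd9* and *Fzd10* changed places between control and cKO neurospheres.

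The first comparison asked which receptors changed in *Kdm2b* cKO hippocampi. *Fzd2*, *Fzd9* and *Fzd10* rose and no member fell. A call needed an unadjusted p under 0.05 and a log2 fold change of more than 0.4 in either direction, on log2(FPKM + 1), where low genes appear to change less than they do. Of the 9 members with a mean of at least 0.5 FPKM, 3 passed upward and 0 downward, against 3.89% and 2.25% of the 13446 genes tested (6.14% in either direction), and the same 3 passed with an adjusted p, against 4.41% of all genes. Without the fold threshold 6 of the 9 were higher and 0 lower at an unadjusted p under 0.05. All 9 fold changes were positive, with a median of 0.29 beside 0.0084 over all genes tested. In bulk tissue a change in the number of cells that hold a transcript and a change in the amount per cell cannot be told apart.

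*Fzd2* and *Fzd10* had the largest changes of the members, with *Fzd2* ahead on log2(FPKM + 1) and *Fzd10* ahead by the ratio of means (2.13-fold) and with a pseudocount of 0.1 (1.051 against 1.013 on the log2 scale). *Fzd2* stood at 2.96, 3.44 and 3.58 FPKM in the control hippocampi and at 7.30, 6.83 and 6.28 in the cKO hippocampi. The lowest cKO library was well above the highest control library, with group means of 3.32 ± 0.327 and 6.80 ± 0.515 (SD, n = 3 each), a 2.05-fold ratio of means. On the log2 scale it rose by 0.85 ± 0.096 (SE, limma adjusted p = 0.00227). *Fzd2* is the closest relative of *Fzd1* and *Fzd7*, which stood higher in control hippocampi and did not pass the threshold. *Fzd1* measured 22.04, 21.5 and 23.6 FPKM in control and 27.1, 26.1 and 27.7 in cKO hippocampi. Its groups did not overlap, and its log2 fold change of 0.26 ± 0.056 was below 0.4 (limma adjusted p = 0.0248). *Fzd7* measured 9.38, 11.96 and 9.65 FPKM in control and 11.8, 14.3 and 12.3 in cKO hippocampi, with overlapping groups and a log2 fold change of 0.29 (limma adjusted p = 0.131).

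*Fzd9*, whose human counterpart lies in the interval deleted in Williams syndrome, was at 5.94, 3.79 and 4.79 FPKM in control and at 7.47, 8.84 and 7.76 in cKO hippocampi. The groups did not overlap, and the control libraries were spread more widely than the cKO libraries. Its log2 fold change was 0.64 ± 0.13 (SE, limma adjusted p = 0.0214). *Fzd10*, its closest relative and a gene of the dorsal neural tube, was at 1.65, 1.33 and 2.21 FPKM in control and at 4.24, 4.06 and 2.75 in cKO hippocampi. The cKO library of replicate 3 was the lowest of its group and still above every control library. The log2 fold change of *Fzd10* was 0.78 ± 0.16 (SE, limma adjusted p = 0.0218). *Fzd4*, the third of that branch and the receptor of Norrin in vessels, measured 1.57 ± 0.299 and 1.73 ± 0.314 FPKM with overlapping groups (log2 fold change 0.08, limma adjusted p = 0.770).

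*Fzd6* lay just under the threshold. It measured 3.83, 4.30 and 4.03 FPKM in control and 5.70, 5.35 and 5.87 in cKO hippocampi, and the groups did not overlap. The log2 fold change was 0.39 ± 0.085 (SE, limma adjusted p = 0.0253), and it came to 0.47 with a pseudocount of 0.1 and to 0.41 with every library at the same FPKM total, both past the threshold. *Fzd3*, its relative in axon guidance, measured 13.7 ± 0.609 and 15.2 ± 0.762 (0.14, limma adjusted p = 0.251). *Fzd8* measured 4.13 ± 0.226 and 4.48 ± 0.297 (0.10, limma adjusted p = 0.587). *Fzd5* was not tested, at 0.125 and 0.182 FPKM on average. In all, 5 of the 9 tested members, *Fzd1*, *Fzd2*, *Fzd6*, *Fzd9* and *Fzd10*, had every cKO library above every control library, where 29.2% of all genes tested did not overlap in either direction.

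The summed Frizzled FPKM was 65.2 to 67.9 in control and 84.0 to 87.7 in *Kdm2b* cKO hippocampi. Within that sum the share of *Fzd2* went from between 4.53% and 5.27% to between 7.47% and 8.63%. The share of *Fzd3* went from between 20.2% and 21.2% to between 17.0% and 18.1%, so a receptor with a positive fold change took a smaller part of the total. *Fzd1*, *Fzd3* and *Fzd7* together held 62.9% to 65.7% in cKO hippocampi, below the range of the controls. A share does not depend on how a library is scaled.

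Other cell populations moved with the same libraries, and their part in these values was not tested. Summed markers of intermediate progenitors were 110 to 124 FPKM in control and 168 to 179 in cKO hippocampi, with 2 of 3 tested markers higher. Of 9 neural progenitor markers 4 were higher and 0 lower (limma, 8 higher and 1 lower at an unadjusted p under 0.05). Their sums overlapped, at 1167 to 1256 FPKM in control and 1209 to 1332 in cKO hippocampi. *Fabp7*, the most abundant of them, went from 764 to 681 FPKM on average (-0.17). Cortical hem markers summed to 3.61 to 5.11 FPKM in control and 6.92 to 7.68 in cKO hippocampi, with 2 of 3 tested higher. Thalamic markers summed to 38.3 to 41.3 and 51.6 to 56.0, with 1 of 4 tested higher, *Lhx9* (0.57). Without the fold threshold 4 of 4 were higher at an unadjusted p under 0.05 (limma). Their defining marker *Gbx2* was near 0, at 0.0381 and 0.228 FPKM on average, and was not tested. The value of *Tnnt1*, 3.55 and 4.62 FPKM on average, was that of an entry shared with *Dnaaf3* and *Tnni3*. Whether the samples differed in thalamic tissue was not tested. Choroid plexus markers ranged from 4.97 to 16.1 in control and from 6.92 to 59.2 in cKO hippocampi, with overlapping groups, and 2 of 3 tested were higher, *Ttr* (1.77, limma adjusted p = 0.194) and *Clic6* (0.47, limma adjusted p = 0.193). *Clic6* stood at 0.255 FPKM in control hippocampi, under the 0.5 FPKM filter, and was tested only through its cKO values. Summed neuronal markers were 1822 to 1935 in control and 1447 to 1787 in cKO hippocampi, and those of the oligodendrocyte lineage 59.8 to 61.0 and 50.6 to 53.7, with 0 of 8 and 0 of 5 past the threshold (limma, 1 higher and 4 lower neuronal markers and 1 lower of the lineage at an unadjusted p under 0.05). Microglial markers summed to 15.8 to 17.99 and 20.1 to 24.4 FPKM, with 1 of 5 higher, *Cx3cr1* (0.43, limma adjusted p = 0.0325). None of 7 endothelial markers passed in either direction (limma, 0 at an unadjusted p under 0.05), and they summed to 82.2 to 113 FPKM over all 6 libraries.

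**Figure D2:**
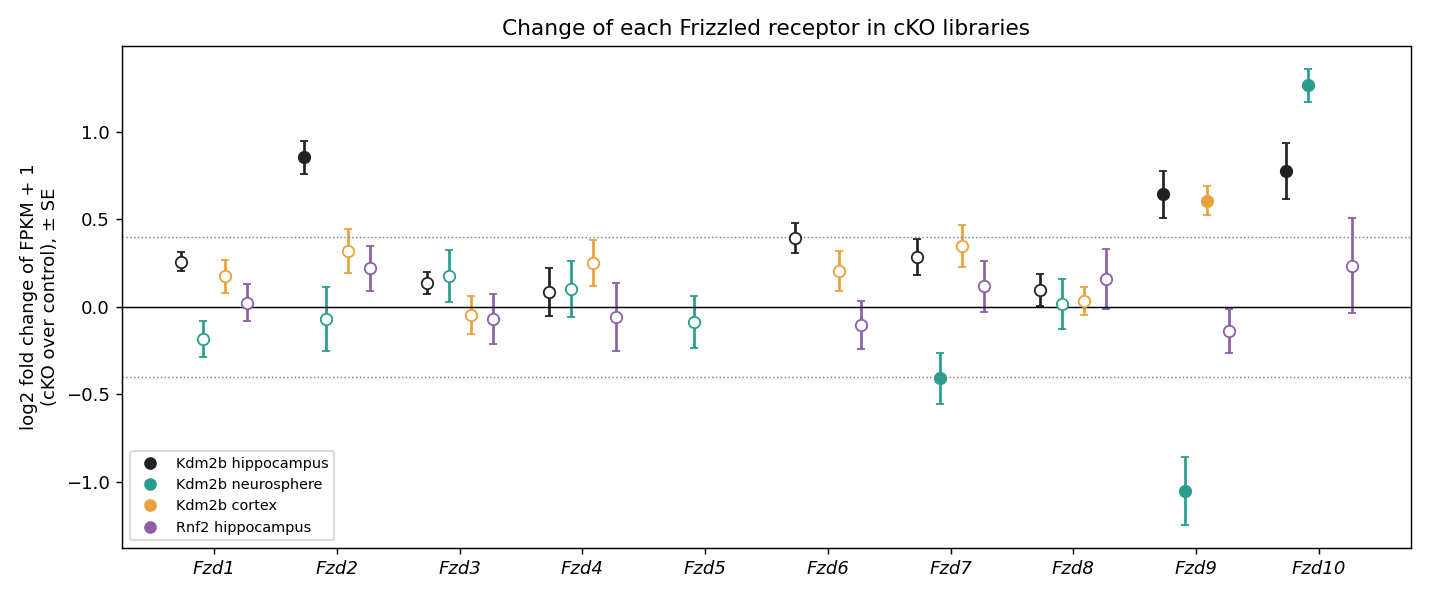
Log2 fold change of FPKM + 1, cKO over control, with its standard error for each receptor tested in each comparison, filled where it passed the threshold and open where it did not, with dotted lines at 0.4 and -0.4. *Fzd9* was filled above 0 in hippocampus and cortex of the *Kdm2b* line and filled below 0 in neurospheres, while *Fzd10* was filled above 0 in hippocampus and neurospheres.

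Neurospheres asked the same question in progenitors grown away from the tissue. There *Fzd10* rose, *Fzd9* and *Fzd7* fell, and the order of the most abundant receptors differed between the groups. Of 9 members tested 1 passed upward and 2 downward, where 11.4% and 13.2% of 12227 genes did (24.6% in either direction). Among all called genes 46.2% were higher, and 60.2% with every library at the same FPKM total, a scaling that moved the median of all genes by 0.11 and under which *Fzd7* no longer passed. With an adjusted p, *Fzd10* and *Fzd9* passed, against 19.3% of all genes. The fold changes had a median of -0.07, beside -0.011 over all genes, with 4 positive and 5 negative.

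*Fzd9* stood at 24.4 and 26.9 FPKM in control neurospheres and at 14.7 and 9.47 in cKO neurospheres. Both cKO libraries were below both controls, though they differed from each other more than the controls did. The log2 fold change was -1.05 ± 0.19 (SE, limma adjusted p = 0.0157). *Fzd10* stood at 8.24 and 7.53 FPKM in control and at 19.6 and 21.1 in cKO neurospheres. The groups lay far apart, with means of 7.88 ± 0.499 and 20.3 ± 1.04 (SD, n = 2 each), and on the log2 scale it rose by 1.26 ± 0.094 (SE, limma adjusted p = 0.00163).

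Summed over both receptors, the groups overlapped. *Fzd9* and *Fzd10* together came to 32.6 and 34.4 FPKM in control and 34.3 and 30.6 in cKO neurospheres, and to between 39.6% and 41.5% of the summed Frizzled FPKM in all 4 libraries. Within that, *Fzd9* went from 30.3% and 31.7% in control to 17.8% and 12.3% in cKO neurospheres, and *Fzd10* from 10.2% and 8.89% to 23.7% and 27.3%. *Fzd10* came second in both cKO libraries, behind *Fzd3* in replicate 1 and behind *Fzd1* in replicate 2, and *Fzd9*, first in both controls, came after *Fzd1*, *Fzd3* and *Fzd10*. This pair was summed after its values were seen.

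*Fzd7* measured 3.12 and 2.68 FPKM in control and 2.11 and 1.77 in cKO neurospheres. The groups did not overlap, and the log2 fold change of -0.41 ± 0.15 passed at an unadjusted p of 0.0319 but not when adjusted (limma adjusted p = 0.0974). It came to -0.33 with limma once control replicate 1, the library that stood apart, was left out, and no longer passed. Without that library *Fzd9* had a log2 fold change of -1.12 and *Fzd10* of 1.32, and both still passed. *Fzd1* measured 22.9 ± 0.862 and 20.1 ± 2.27 FPKM (log2 fold change -0.19, limma adjusted p = 0.238), and *Fzd3* measured 15.1 ± 1.48 and 17.3 ± 3.44 (0.18). A further *Fzd3* entry of 5.43 to 8.32 FPKM was not used. *Fzd2*, *Fzd4*, *Fzd5* and *Fzd8* had log2 fold changes between -0.09 and 0.10, and *Fzd6* at 0.344 and 0.443 FPKM was not tested. Every cKO library lay on the same side of the controls for 4 of the 9 tested members, *Fzd10* above and *Fzd1*, *Fzd7* and *Fzd9* below, where 66.4% of all genes tested did so.

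Markers of the cells in culture moved in the same libraries, and their part in the Frizzled values was not tested. The summed FPKM of the astrocyte markers *Aqp4*, *Gja1*, *Aldh1l1* and *Gfap* was 158 to 189 in control and 21.1 to 21.6 in cKO neurospheres, and 4 of 4 were lower. Neural progenitor markers summed to 4193 to 4641 in control and 5568 to 7398 in cKO neurospheres. Of the 9, 2 were higher, *Vim* (1.18) and *Nes* (0.89), and 2 lower, *Hes5* (-0.94) and *Hes1* (-0.89). The median log2 fold change of the 9 was -0.20. *Vim* went from 1255 to 2886 FPKM on average, and *Fabp7* (2293 and 2771, not called) was read from an entry shared with *Smpdl3a*. Neuronal markers summed to 231 to 242 and 169 to 198, with 1 of 5 tested higher and 3 lower, led by *Dcx* (-2.21). Intermediate progenitor markers summed to 4.84 to 6.16 and 8.49 to 9.79, with 1 of 2 tested higher, *Neurod1* (0.94), while *Neurog2* did not pass (0.18). Their defining marker *Eomes* was near 0, at 0.0943 and 0.201 FPKM on average, as was *Neurog1* (0 and 0.0225), and neither was tested. Of 5 oligodendrocyte lineage markers 3 were lower and 0 higher, though their sum was 2360 to 2436 in control and 2417 to 2479 in cKO neurospheres. The striatal list summed to 1.07 to 1.23 and 17.3 to 24.5, with *Six3* the only marker tested. Blood markers were at 0 in both controls and at most 2.999 FPKM in cKO neurospheres, and microglial markers summed to at most 0.279.

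**Figure D3:**
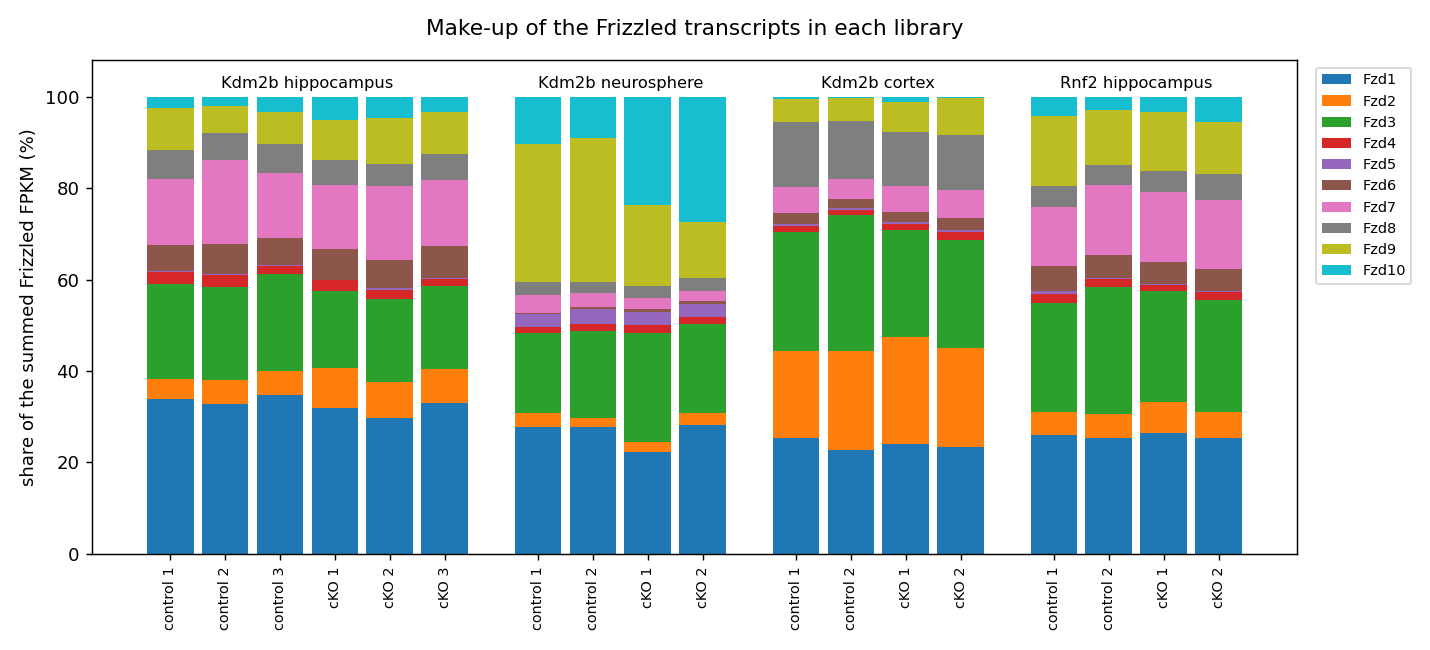
Share of each receptor in the summed Frizzled FPKM of every library, in percent, stacked from *Fzd1* at the bottom to *Fzd10* at the top. The yellow-green band of *Fzd9* shrank from 30.3% and 31.7% to 17.8% and 12.3% in *Kdm2b* cKO neurospheres while the light blue band of *Fzd10* widened, and the orange band of *Fzd2* was widest in cortex.

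Cortex of the same line was compared to see whether the receptors moved outside the hippocampus. *Fzd9* rose and no other member passed. Of 8 members tested 1 was higher and 0 lower, where 4.73% and 2.28% of 15691 genes were (7.01% in either direction), and with limma 2 were higher and 0 lower at an unadjusted p under 0.05 with no fold threshold. No member passed with an adjusted p, where 0.427% of all genes did. The median log2 fold change was 0.23 beside -0.0053 over all genes, with 7 positive and 1 negative.

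*Fzd9* stood at 3.58 and 3.55 FPKM in control and at 5.73 and 6.18 in cKO cortices, from 181 and 173 reads and from 258 and 265 reads. The groups did not overlap, and the log2 fold change was 0.61 ± 0.083 (SE, limma adjusted p = 0.0940). On the recovered reads limma-voom gave 0.74 with an adjusted p of 0.0304, and over all alternatives the adjusted p of *Fzd9* ranged from 0.0304 to 0.420. *Fzd2* stood at 13.2 and 15.6 FPKM in control and at 19.9 and 16.5 in cKO cortices. Its groups did not overlap, but the libraries within each differed by several FPKM, and the log2 fold change of 0.32 did not pass (limma adjusted p = 0.401). *Fzd7* stood at 3.93 and 3.08 FPKM in control and at 4.84 and 4.58 in cKO cortices, with a log2 fold change of 0.35 that passed at the unadjusted p but was below the fold threshold (limma adjusted p = 0.331). *Fzd4* stood at 0.966 and 0.721 FPKM in control and at 1.14 and 1.23 in cKO cortices, a log2 fold change of 0.25 (limma adjusted p = 0.533).

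*Fzd10* was not tested in cortex. It had 20 and 15 reads in control and 57 and 8 reads in cKO cortices, or 0.279, 0.217, 0.893 and 0.132 FPKM. The cKO libraries held both the highest and the lowest value. *Fzd3* was the only tested member with a negative value in cortex (-0.05), and *Fzd1*, *Fzd6* and *Fzd8* lay at 0.17, 0.20 and 0.03. Groups did not overlap for 6 of 8 tested members, all with cKO above control, where 44.8% of all genes tested did not overlap. The summed Frizzled FPKM was 69.4 and 72.1 in control and 85.5 and 76.6 in cKO cortices.

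Markers of meninges and vessels differed between the cortical groups, and their part in these values was not tested. The 7 meningeal markers summed to 1.44 to 2.37 FPKM in control and 23.8 to 40.4 in cKO cortices, and 7 of 7 were higher, 3 of them with an adjusted p. Their control means were 0.0724 to 0.392 FPKM, all under the 0.5 FPKM filter. They were tested only through their cKO values, so this count could hardly have come out otherwise. Endothelial markers summed to 37.1 to 38.1 and 58.8 to 60.0 FPKM, with 3 of 7 higher, and blood markers to 435 to 454 and 623 to 711, with 3 of 5 higher. With an adjusted p, 0 passed in either list. Markers of the cortical hem summed to 0.528 to 0.571 and 2.05 to 3.23 FPKM. That difference came from *Msx1* (0.141 and 1.31 on average) and *Bmp4* (0.0516 and 0.938). *Lmx1a* (0.121 and 0.122) and *Gdf7* (0.229 and 0.255) were near 0 in both groups, as was *Msx2* (0.00717 and 0.0163). Neuronal markers summed to 2238 to 2305 and 2164 to 2193 with 0 of 8 past the threshold (limma, 0 at an unadjusted p under 0.05).

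The *Rnf2* hippocampi asked whether loss of a catalytic Polycomb subunit did the same. No receptor passed the threshold with limma: 0 of 9 tested were higher, 0 lower, and 0 had an unadjusted p under 0.05 (limma-voom also gave 0). Over all 15764 genes tested 2.86% were higher and 1.85% lower (4.71% in either direction), and 0 passed with an adjusted p. The median log2 fold change of the members was 0.023 beside -0.00024 over all genes, with 5 positive and 4 negative.

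*Fzd2* stood at 3.80 and 4.11 FPKM in control and at 4.91 and 4.62 in *Rnf2* cKO hippocampi. The groups did not overlap, and the log2 fold change was 0.22 ± 0.13 (SE, limma adjusted p = 0.760). *Fzd9* stood at 11.2 and 9.42 FPKM in control and at 9.32 and 9.14 in cKO hippocampi, with every cKO library below the controls and a log2 fold change of -0.14 ± 0.13. *Fzd10* stood at 3.11 and 2.195 FPKM in control and at 2.35 and 4.43 in cKO hippocampi, so the spread within the cKO group was larger than the difference of means. The other tested members lay between -0.10 and 0.16 on the log2 scale, and *Fzd5* at 0.306 and 0.163 FPKM was not tested. Groups did not overlap for 3 of 9 tested members, *Fzd2* above and *Fzd6* and *Fzd9* below, where 38.3% of all genes tested did not. The summed Frizzled FPKM was 73.4 and 77.5 in control and 72.1 and 80.2 in cKO hippocampi. Meningeal markers, of which 4 of 7 were lower, summed to 39.6 to 40.3 FPKM in control and 18.1 to 27.4 in cKO hippocampi, and choroid plexus markers to between 7.53 and 240 FPKM.

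A call in one comparison and none in another does not show that the effects differ, so the fold changes were compared directly, each against that of *Kdm2b* cKO hippocampi. These 3 contrasts share the hippocampal libraries. Between neurospheres and hippocampi, 4 of the 8 members tested in both differed with an adjusted p under 0.05, where 26.9% of 11075 genes did. *Fzd9* differed most, with the neurosphere log2 fold change 1.69 lower (95% confidence interval of the difference -2.24 to -1.15, limma adjusted p = 0.000704). The difference was -0.92 for *Fzd2* (-1.34 to -0.51, limma adjusted p = 0.00485), -0.70 for *Fzd7* (-1.08 to -0.32, limma adjusted p = 0.0128) and -0.44 for *Fzd1* (-0.68 to -0.21, limma adjusted p = 0.0115). For *Fzd10*, which rose in both, it was 0.49 (-0.01 to 0.99, limma adjusted p = 0.134). Without neurosphere control replicate 1 the difference of *Fzd7* was -0.61 and no longer passed (limma adjusted p = 0.0568), whereas those of *Fzd9*, *Fzd2* and *Fzd1* still did. With every library at the same FPKM total those of *Fzd1* (-0.35, limma adjusted p = 0.309) and *Fzd7* (-0.63, limma adjusted p = 0.0674) no longer passed, and those of *Fzd2* and *Fzd9* did.

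Between cortex and hippocampus, 0 of 8 members passed with limma, where 1.61% of 10708 genes did, and 1 had an unadjusted p under 0.05. That was *Fzd2*, with a difference of -0.53 (-0.86 to -0.20, limma adjusted p = 0.130). The difference of *Fzd9* was -0.03, and its interval of -0.44 to 0.37 leaves room for effects of either sign. Between *Rnf2* and *Kdm2b* hippocampi, 0 of 9 members passed with limma, where 0.683% of 11266 genes did, and 4 had an unadjusted p under 0.05. The differences were -0.78 for *Fzd9* (-1.21 to -0.35, limma adjusted p = 0.0898), -0.63 for *Fzd2* (-0.96 to -0.31, limma adjusted p = 0.0791), -0.50 for *Fzd6* (-0.80 to -0.19, limma adjusted p = 0.116) and -0.23 for *Fzd1* (-0.45 to -0.02, limma adjusted p = 0.285). Without *Rnf2* control replicate 2 the difference of *Fzd9* was -0.89 and passed (limma adjusted p = 0.0489).

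**Figure D4:**
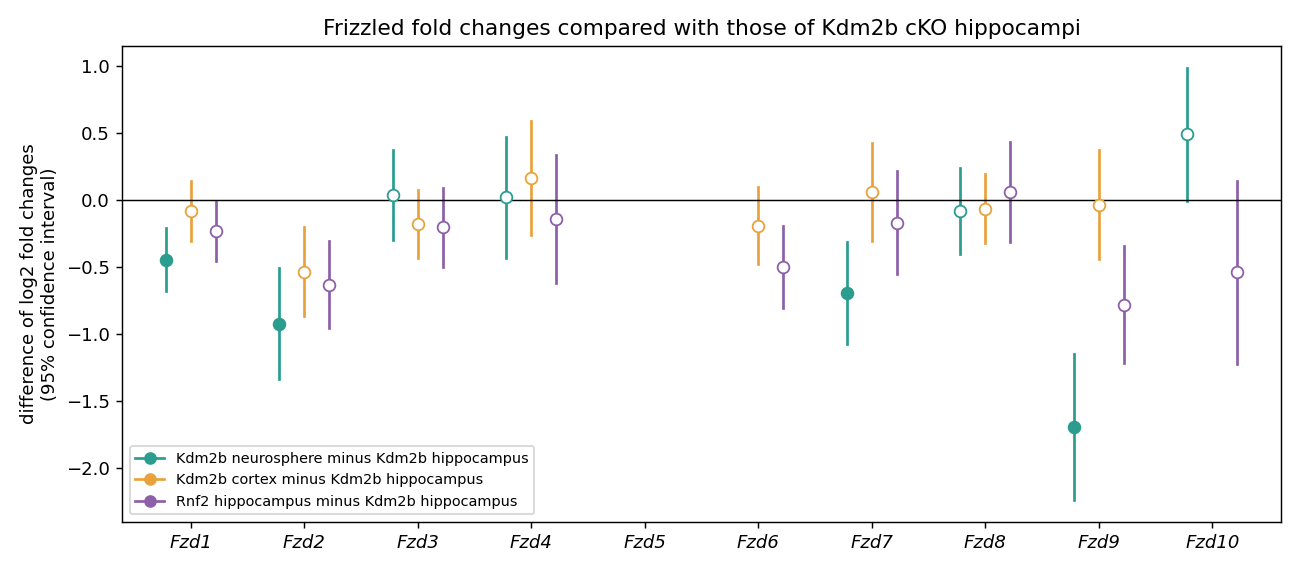
Difference between the log2 fold change of each receptor in neurospheres, cortices or *Rnf2* hippocampi and that in *Kdm2b* hippocampi, with its 95% confidence interval, filled where the adjusted p was under 0.05. The 4 filled points are the neurosphere differences of *Fzd1*, *Fzd2*, *Fzd7* and *Fzd9*, the last at -1.69.

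Genes on either side of the receptors were read from lists of the pathway. Of the Wnt ligands, 7 of 10 tested rose in *Kdm2b* cKO hippocampi and 0 fell, with a median log2 fold change of 0.46. They included *Wnt8b*, a gene of the hem and hippocampal primordium (1.16), *Wnt5b* (0.89) and *Wnt3a*, a hem ligand needed for hippocampal growth (0.71). *Wnt3a* stood at 0.270 FPKM in control hippocampi, under the 0.5 FPKM filter, and at 1.08 in cKO hippocampi, so it was tested only through its cKO values. None of 6 ligands tested in neurospheres passed (limma, 1 higher at an unadjusted p under 0.05). In cortices 2 of 6 rose, *Wnt5b* (1.17, limma adjusted p = 0.0428) and *Wnt3* (0.58, limma adjusted p = 0.260). *Wnt3* stood at 0.383 FPKM in control cortices, under the filter, and at 1.07 in cKO cortices, so it too was tested only through its cKO values. In *Rnf2* cKO hippocampi 0 of 10 ligands passed with limma, at the unadjusted p alone too. *Ndp*, which encodes the *Fzd4* ligand Norrin, fell by 0.46 on the log2 scale in *Kdm2b* cKO hippocampi and by 0.65 in cKO cortices, while *Fzd4* itself did not pass in either.

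Coreceptors were higher for 2 of 8 tested in *Kdm2b* cKO hippocampi, *Ror2* (0.56), a Wnt5a receptor, and *Ptk7* (0.47), a planar polarity receptor. In neurospheres 1 of 8 was higher, *Lrp5* (0.96), and in cortices 3 of 8, led by *Adgra2* (0.78) and *Reck* (0.53), partners in Wnt7 reception by vessels. None of the cortical coreceptors passed with an adjusted p (limma adjusted p = 0.0929 for *Adgra2* and 0.156 for *Reck*). In *Rnf2* cKO hippocampi *Ror2* was higher (0.54) and *Tspan12*, the partner of *Fzd4* in Norrin signaling, lower (-0.41), both with a limma adjusted p of 0.679 or more. Genes that set how much Frizzled stays at the membrane, the ubiquitin ligases *Znrf3* and *Rnf43* with their R-spondin and LGR regulators, gave 1 of 7 higher in hippocampi, *Rspo1* (1.12), and in neurospheres 1 higher and 1 lower of 4, *Lgr5* (0.71) and *Rnf43* (-1.02). None of 4 passed in cortices and none of 7 in *Rnf2* hippocampi (limma, 0 at an unadjusted p under 0.05 in both).

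Secreted Wnt antagonists were higher for 3 and lower for 1 of 7 in *Kdm2b* cKO hippocampi, and higher for 3 and lower for 2 of 5 in neurospheres. They were higher for 3 of 4 in cortices and for 1 of 7 in *Rnf2* cKO hippocampi, 0 of these with an adjusted p. Some were under the 0.5 FPKM filter in a group, *Notum* (0.430 in control) and *Sfrp1* (0.494 in cKO) in neurospheres and *Dkk2* (0.306 in control) in cortices. *Sfrp2*, a soluble protein with a Frizzled-like Wnt-binding domain, was the one among them that passed upward in all 4 comparisons (1.06, 1.19, 0.94 and 0.56, the last 2 with limma adjusted p values of 0.0575 and 0.590). *Frzb*, of the same kind, fell by 0.49 in hippocampi and by 0.85 in neurospheres. Feedback targets of β-catenin signaling rose for 4 of 6 in hippocampi. With an adjusted p 2 of these passed, *Lef1* (1.19) and *Axin2* (0.55, from an entry shared with *Cep112*). *Sp5* (0.65, limma adjusted p = 0.0614) and *Nkd1* (0.46, limma adjusted p = 0.107) did not. In neurospheres 5 of 6 rose, and 5 passed with an adjusted p. Of those 5, *Lef1* (1.19), *Nkd2* and *Sp5* had control means under the 0.5 FPKM filter, at 0.393, 0.439 and 0.375 FPKM. They were tested only through their cKO values. In cortices 3 of 4 rose, with *Tcf7* at 0.89, and in *Rnf2* hippocampi 1 of 6, *Nkd1* at 0.49. With an adjusted p, 0 passed in either of these 2 comparisons. Transducers passed for 1 of 10 in hippocampi, *Tcf7l2* upward (0.40), for 2 of 10 in neurospheres, *Tcf7l2* (-0.76) and *Tcf7l1* (-0.51) downward, and for 0 of 10 in cortices and *Rnf2* hippocampi (limma, 0 at an unadjusted p under 0.05). Planar polarity genes passed for 1 of 8 in hippocampi, *Celsr1* (0.82), and for 0 of 8 in each other comparison, where limma gave 1 lower at an unadjusted p under 0.05 in neurospheres and 0 in the others. *Smo*, the Hedgehog transducer of the Frizzled class, rose in *Kdm2b* cKO hippocampi (0.46, limma adjusted p = 0.0131) and did not pass elsewhere (0.02 to 0.11).

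*Fzd9* and *Fzd10* were called in more than 1 comparison, so the genes whose pattern was most like theirs were sought over all 18 libraries, as log2(FPKM + 1) minus the control mean of the same data set. Among 9605 genes tested in all 4 data sets, *Id4*, an inhibitor of basic helix-loop-helix factors, had the highest Pearson r with *Fzd9* (0.952), followed by *Gsta4* (0.931) and *Hsd17b11* (0.930). *Fzd10* was most like *Rassf7* (0.932), *Tesc* (0.917) and *Vim* (0.911), the last the gene of vimentin, an intermediate filament of radial glia. The points share libraries, and the neurospheres, with the largest deviations, weigh most in them, so these values are descriptions only. Among the members, *Fzd9* was most like *Fzd7* (0.793) and *Fzd1* (0.769).

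In the genome (GRCm38, GENCODE), *Fzd9* (ENSMUSG00000049551) lies at chr5:135248938-135251230 on the minus strand and *Fzd10* (ENSMUSG00000081683) at chr5:128600844-128604093 on the plus strand, each with a single exon. *Fzd2* (ENSMUSG00000050288), also a single exon, lies at chr11:102604396-102608058 on the plus strand. No annotated gene overlapped these 3. Overlapping genes were annotated for *Fzd3*, *Fzd5* and *Fzd6*, at means of 0.498 FPKM or less in cortices and *Rnf2* hippocampi.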

How the data were processed

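RNA-seq of 18 libraries, each from postnatal day 0 tissue or cultures of it, was used. FPKM values were deposited by the authors. Their methods describe trimming with cutadapt, alignment with STAR to mm10 and FPKM from Cufflinks (version 2.2.1 in the submitters' processing notes) for hippocampi and neurospheres. For the cortical and *Rnf2* libraries the submitters' processing notes name the same tools, and the steps are not given in the sources used here. The reads of each gene in cortical and *Rnf2* libraries were recovered from FPKM and gene length, and 100% of values up to 1000 reads were whole within 0.01 reads. There were 0 unused per-sample columns.

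Unnamed entries were dropped, which were 2861 of 27180 in hippocampi, 2059 of 26293 in neurospheres and 140 of 54672 in cortices, and the highest entry of a name was kept. The test was limma 3.58.1 (R 4.3.3, functions lmFit and trended eBayes) on log2(FPKM + 1), run separately for each comparison on genes averaging 0.5 FPKM or more. A call needed an unadjusted p under 0.05 and a log2 fold change beyond 0.4 in either direction, and Benjamini-Hochberg adjusted p values over all genes are given beside it. Each comparison used only its own control and cKO libraries, grouped by their labels. Differences between comparisons were interaction contrasts over genes tested in both. Share and order of the members were described without a test. The code was tested on simulated data.

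The members, lists and tests were chosen with earlier results of these data known. Every member was named in every comparison, and of the pathway lists up to 5 called genes a list and comparison could be named. For each member called in at least 2 comparisons, the 3 genes most like it were named. The pair sum of *Fzd9* and *Fzd10* was added after the values were seen.

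Alternatives were a pseudocount of 0.1, no filter, a filter of 1 FPKM, libraries at the same FPKM total, median-ratio scaling, no trend, a replicate block, adjusted p values, no fold threshold, summed entries, limma-voom on recovered reads, and each library left out in turn. Promoter windows are from RefSeq and gene positions from GENCODE, both on GRCm38.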

Additional observations from a re-analysis of the deposited data

Results flagged for a closer look

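Differences in fold change between neurospheres and hippocampi of the *Kdm2b* line are listed here because the interaction test passed with an adjusted p under 0.05. The neurosphere value minus the hippocampal value was -1.69 for *Fzd9*, which fell in neurospheres and rose in hippocampi (limma adjusted p = 0.000704). It was -0.92 for *Fzd2* (limma adjusted p = 0.00485), -0.70 for *Fzd7* (limma adjusted p = 0.0128) and -0.44 for *Fzd1* (limma adjusted p = 0.0115). In this contrast 4 of 8 members passed, beside 26.9% of all genes. With every library at the same FPKM total 2 passed, *Fzd2* and *Fzd9*, and *Fzd7* was also lost without neurosphere control replicate 1 (limma adjusted p = 0.0568).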

How the results depend on the processing

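*Fzd2*, *Fzd9* and *Fzd10* passed in *Kdm2b* cKO hippocampi under all 16 alternatives, and *Fzd9* and *Fzd10* in neurospheres under all 15. Their highest adjusted p over these alternatives was 0.0172, 0.0833 and 0.0846 in hippocampi and 0.123 and 0.0356 in neurospheres. Without a fold threshold 6 members were higher in hippocampi. In neurospheres the count of lower members went from 2 to 1 with the same FPKM total and with adjusted p, each time losing *Fzd7*, and ranged from 1 to 2 with a library left out, at 1 without control replicate 1, control replicate 2 or cKO replicate 2. In cortices the count of higher members was 2 with a pseudocount of 0.1, 0 with adjusted p, 2 with no fold threshold and 3 with limma-voom on recovered reads (*Fzd4*, *Fzd7* and *Fzd9*). It ranged from 1 to 2 with a library left out, with *Fzd7* added without control replicate 1 and *Fzd2* without control replicate 2 or cKO replicate 2. The same FPKM total moved the median log2 fold change of all neurosphere genes by 0.11 and the share of higher among called genes from 46.2% to 60.2%, and left 2 of 4 neurosphere differences from hippocampi, those of *Fzd2* and *Fzd9*. The log2 fold change of *Fzd7* was then -0.32. The cause was not tested.

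Directions turned only for values that passed in no setting run. With the same FPKM total *Fzd2* came to 0.015 in neurospheres and *Fzd8* to -0.0080 in cortices, and with summed entries the neurosphere difference of *Fzd3* came to -0.0609. With a library left out, the log2 fold change of *Fzd4* ranged from -0.0117 to 0.184 in *Kdm2b* hippocampi. In neurospheres *Fzd2* ranged from -0.267 to 0.127, *Fzd3* from -0.0170 to 0.368, *Fzd5* from -0.203 to 0.0299 and *Fzd8* from -0.0758 to 0.108. In cortices *Fzd3* ranged from -0.161 to 0.0706 and *Fzd8* from -0.0169 to 0.0803. In *Rnf2* hippocampi *Fzd1* ranged from -0.0185 to 0.0642, *Fzd3* from -0.212 to 0.0769, *Fzd4* from -0.197 to 0.0810, *Fzd7* from -0.0347 to 0.267, *Fzd8* from -0.0287 to 0.342 and *Fzd10* from -0.114 to 0.584. The differences from hippocampi were also fitted with each library left out, an alternative chosen after seeing the data. In neurospheres 3 to 4 members differed, and those of *Fzd3*, *Fzd4* and *Fzd8* ranged from -0.153 to 0.232, from -0.0806 to 0.115 and from -0.171 to 0.0126. In cortices those of *Fzd1*, *Fzd7* and *Fzd9* ranged from -0.178 to 0.0101, from -0.0731 to 0.197 and from -0.167 to 0.1002. In *Rnf2* hippocampi 0 to 1 differed, and that of *Fzd8* ranged from -0.124 to 0.247.

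With the replicate block, 3 members were higher and 0 lower in *Kdm2b* hippocampi, 1 higher and 2 lower in neurospheres, 1 higher and 0 lower in cortices and 0 in *Rnf2* hippocampi, the same counts as without it. Samples with the same number deviated together with correlations of -0.10 to 0.05 in hippocampi, -0.28 in neurospheres, -0.05 in cortices and 0.16 in *Rnf2* hippocampi. Where a group has 2 libraries, their deviations mirror each other, so both numbers give the same correlation. Such a value cannot decide whether the numbers pair samples. The numbers were not taken to pair them. A crossed replicate block in neurospheres, chosen after seeing the data, gave 1 higher and 2 lower. With 2 libraries a group, a left-out library leaves a lone sample that is assumed to vary like the others. Without read counts per gene in hippocampi and neurospheres, no counting error could be given for *Fzd5* or *Fzd6* there, and 8 to 57 reads limit *Fzd10* in cortices.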
